A study of Mus musculus with 10 samples.

Results

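Umod, Egf, Calb1, Kl, Aqp2, Aqp3, Aqp4, Scnn1a, Scnn1b and Scnn1g mark the loop of Henle, the distal tubule and the collecting duct, the tubule segments that lie closest to an obstructed ureter. They were found by gene name in the deposited count table and make up 10 of its 54532 genes. The kidneys came from male wild-type mice on a C57BL/6 background, whose left ureter was double ligated (unilateral ureteral obstruction, UUO) at an age of 8 weeks and which were killed 14 days after surgery. DMM mice received dimethyl malonate, a prodrug of the succinate dehydrogenase inhibitor malonate, by intraperitoneal injection of 40 mg/kg every other day after UUO, and PBS mice, which carried the same obstruction, received phosphate-buffered saline. Each group had 5 mice and 1 bulk RNA-seq library per mouse, numbered 1 to 5 within the group, and the comparison asks how the transcriptome of the obstructed kidney differs under DMM. No unobstructed kidney was analysed here, so each level is a level under obstruction. Library totals ranged from 16457495 to 18078777 counts in the PBS group (median 17825223) and from 15722527 to 19475833 counts in the DMM group (median 16794390). The lowest count of the 10 genes in any library was 171, for Aqp4, at which counting error alone is 7.65% of the value.

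The thick ascending limb of the loop of Henle reabsorbs salt without water and secretes uromodulin, the most abundant protein of normal urine. The distal convoluted and connecting tubules adjust calcium and magnesium, and the principal cells of the collecting duct take up water through aquaporins under vasopressin and sodium through the epithelial sodium channel (ENaC) under aldosterone. Transcripts of these segments are known to decline in injured kidneys, which makes them common readouts of how much differentiated tubule remains.

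All 10 genes had a higher mean normalized count in DMM than in PBS kidneys, but the groups overlapped for each gene and none passed the test over all 10 libraries. Normalized counts are given as CPM, edgeR's read counts relative to a library total scaled by the TMM factor. Calls required that the fold change exceed 1.5 and the p of edgeR's quasi-likelihood test, adjusted by Benjamini-Hochberg, be below 0.05. A gene that met the fold threshold with a p below 0.05 before that adjustment is said to have passed before adjustment. Over all 10 libraries, 0 of the 10 genes and 0 (0%) of 16505 tested genes were called, while 1798 genes had an unadjusted p below 0.05 and 993 of these also met the fold threshold. DESeq2 called 50 genes in the same libraries, with 0 of the 10 genes among them. Before adjustment, 0 of the 10 genes passed as higher in DMM kidneys, against 315 tested genes (1.91%). The median log2 fold change, DMM over PBS, was 0.53 for the 10 genes and 0.02 for all tested genes. It was above 0 for all 10 genes and for 52.8% of all tested genes. Across the 10 libraries, Pearson's r of log2 CPM between pairs of the 10 genes ran from 0.138 (Umod and Aqp4) to 0.947 (Calb1 and Kl). The 10 directions are therefore not separate observations. In RNA from whole kidney tissue, fewer cells of a segment and less RNA per cell cannot be told apart.

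Libraries PBS 3 and DMM 1 stood apart from their groups. The deposited group means of the authors are weighted sums of counts in which these libraries have a weight of 0, and a reason is not given in the sources used here. The study's methods state 5 replicates for its DESeq2 comparison, so which libraries entered that comparison is not clear from these sources. PBS 3 was the highest PBS library for 10 of the 10 genes and lay above the mean of the 5 DMM libraries for 9. DMM 1 was below the highest PBS library for 10 of the 10 and below DMM 2, DMM 3 and DMM 5 for 9. Over the 8 libraries without them, Egf, Calb1 and Kl were called higher, 3 of the 10, against 452 of 16550 tested genes called higher (2.73%) and 590 called lower (3.56%). With library size alone as scaling, 276 were called higher and 700 lower. Before adjustment, 7 of the 10 passed as higher over these 8 libraries, against 1067 tested genes (6.45%). Every DMM library lay above every PBS library for 4 of the 10 among the 8 libraries, against 1564 tested genes (9.45%), and for 0 of the 10 among all 10 libraries, against 131 tested genes (0.794%). The 452 became 225 without PBS 1, 198 without PBS 2, 160 without PBS 4, 131 without PBS 5, 186 without DMM 3, 168 without DMM 5 and 1129 without DMM 4, and the 590 became 367, 349, 317, 276, 308, 302 and 1281 in the same order. Leaving out the highest PBS library and a low DMM library widens these differences by construction. The count of the 10 genes called over the 8 libraries was 0 without PBS 5, 1 without PBS 2, PBS 4, DMM 3 or DMM 5, 2 without DMM 2, 3 without PBS 1 and 8 without DMM 4. When DMM 1 alone was left out of the 10 libraries, 50 genes were called higher and 436 lower, with 0 of the 10 genes among them.

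DMM 4 differed from the other libraries by gene length. The median log2 difference of DMM 4 from the mean of the other 9 libraries was -0.64 for 3120 tested genes shorter than 2000 bp and 0.40 for 6162 tested genes longer than 5000 bp, while these medians lay between -0.07 and 0.16 in the other 9 libraries. It lay below DMM 2, DMM 3 and DMM 5 for 7 of the 10 genes and above them for Kl and Aqp4. Over 7 libraries without PBS 3, DMM 1 and DMM 4, a set with 1 of the 8 left out that was singled out after seeing the data, 8 of the 10 genes were called higher, against 1129 of 16828 tested genes (6.71%). Aqp4 and Scnn1b were the exceptions.

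**Figure D1:**
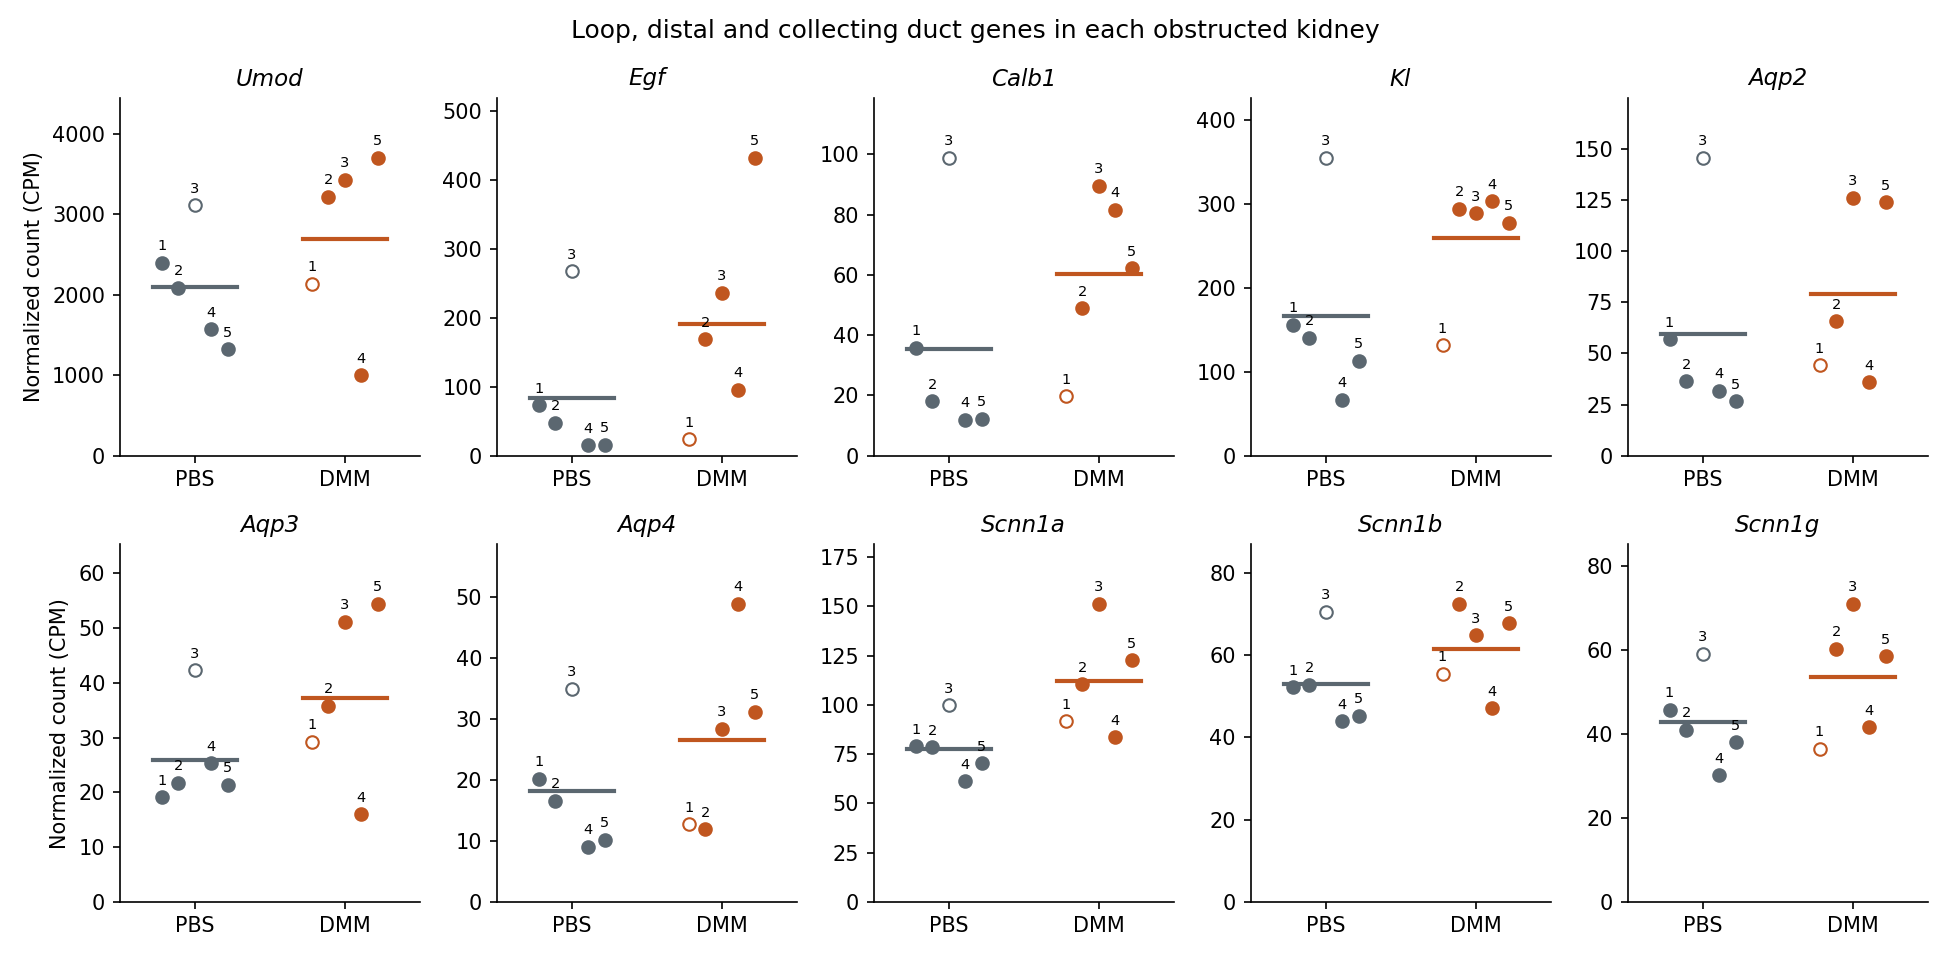
Normalized count (CPM, linear axis from 0) of each gene in every library, with the replicate number above each point, lines at the mean of 5 mice, and open points for PBS 3 and DMM 1. PBS 3 is the highest PBS point in all 10 panels, and DMM 4 is the lowest DMM point in 5.

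Per kilobase of gene length, Umod was the most abundant of the 10 genes in both groups, at 760 ± 256 CPM per kb (SD, n = 5) in PBS and 977 ± 405 CPM per kb in DMM kidneys. Its lowest library, at 363 CPM per kb, lay above the highest library of any other of the 10 genes, Aqp2 at 103 CPM per kb. Aqp2 followed with 42.0 ± 34.9 CPM per kb in PBS and 55.8 ± 30.5 CPM per kb in DMM kidneys. In PBS kidneys, Scnn1b (20.1 CPM per kb), Scnn1a (18.8), Kl (17.8), Scnn1g (14.3) and Aqp3 (14.2) came next, followed by Egf (7.44), Calb1 (7.30) and Aqp4 (3.58). Below Umod, the ranges of neighbours in this order overlapped across PBS libraries. Within libraries, Aqp2 was above Scnn1b, Scnn1b above Scnn1a and Calb1 above Aqp4 in every PBS library, while the order of the other neighbours below Umod varied between libraries. Among the 10 genes, libraries of one group differed most for Egf, with a highest over lowest ratio of 18.0 in PBS and 18.3 in DMM kidneys, and least for Scnn1a and Scnn1b, with 1.63 and 1.61 in PBS and 1.81 and 1.54 in DMM kidneys. The 10 normalized counts summed to 2937, 2540, 4287, 1867 and 1675 CPM in PBS 1 to PBS 5. They summed to 2580, 4088, 4538, 1754 and 4934 CPM in DMM 1 to DMM 5. Umod made up between 57.1% (DMM 4) and 84.2% (PBS 4) of the sum, so the sum followed that gene.

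Umod (ENSMUSG00000030963, chr7:119462711-119479282 of mm10, minus strand) encodes uromodulin, which the thick ascending limb releases into urine. It had 2399, 2087, 3114, 1572 and 1322 CPM in PBS 1 to PBS 5, and 2135, 3220, 3431, 1001 and 3704 CPM in DMM 1 to DMM 5. DMM 2, DMM 3 and DMM 5 were above every PBS library, DMM 1 was within the PBS range, and DMM 4 was below it. Group means were 2099 ± 707 CPM in PBS and 2698 ± 1120 CPM in DMM kidneys (SD, n = 5), with a log2 fold change of 0.36 (SE 0.34, edgeR quasi-likelihood adjusted p = 0.679). That value was 0.55 without PBS 3, 0.24 without PBS 5, 0.57 without DMM 4 and 0.22 without DMM 5. Across the 8 libraries the log2 fold change was 0.62 (SE 0.38, edgeR adjusted p = 0.389), and over the 7 libraries without DMM 4 it was 0.90 (SE 0.18, edgeR adjusted p = 0.00661, with a range of 0.00661 to 0.677 over 15 alternatives to the 8 libraries).

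Egf (ENSMUSG00000028017, chr3:129677565-129755316, minus strand) encodes the precursor of epidermal growth factor, which the thick ascending limb and distal convoluted tubule make. It had 73.4, 47.9, 267, 14.8 and 16.1 CPM in PBS 1 to PBS 5, and 23.6, 169, 236, 95.2 and 432 CPM in DMM 1 to DMM 5. PBS 3 was above every DMM library but DMM 5, and DMM 1 was below PBS 1, PBS 2 and PBS 3, whereas the other 4 DMM libraries were all above the other 4 PBS libraries. Over all 10 libraries the log2 fold change of Egf was 1.19 (SE 0.86, edgeR adjusted p = 0.586), from 83.9 ± 105 CPM in PBS to 191 ± 156 CPM in DMM kidneys (SD, n = 5). It was the largest among the 10 genes except when DMM 5 was left out, where it was 0.64 against 0.76 for Calb1, and without PBS 3 it was 2.33. In the 8 libraries it was called, with 38.1 ± 28.1 CPM in PBS and 233 ± 145 CPM in DMM kidneys (SD, n = 4) and a log2 fold change of 2.61 (SE 0.63, edgeR adjusted p = 0.0405). With 1 of the 8 libraries left out, the log2 fold change stayed between 2.13 and 3.15, while the edgeR adjusted p was 0.0998 without PBS 2, 0.110 without PBS 4, 0.117 without PBS 5, 0.0584 without DMM 2, 0.0918 without DMM 3 and 0.100 without DMM 5, each above the threshold. The adjusted p was also above it with library size alone as scaling (edgeR adjusted p = 0.0512). Over 15 alternatives the adjusted p ranged from 0.00329, with DESeq2, to 0.135, with edgeR.

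Of 16 further genes of the thick ascending limb, 15 were tested over all 10 libraries and 0 were called. Of the 15, 4 passed as higher before adjustment, against 1.91% of all tested genes. The median log2 fold change was 0.50, against 0.02 for all tested genes. Without PBS 3 and DMM 1, 5 of 16 were called higher and 0 lower, against 2.73% of all tested genes, with a median of 0.83. This count was 11 without DMM 4, against 6.71% of all tested genes. It was 2 without PBS 2 or DMM 3, 3 without PBS 4, and 1 without PBS 5. Kcnj1, the potassium channel ROMK that recycles potassium into the lumen, had 96.4 ± 32.9 CPM in PBS and 147 ± 25.4 CPM in DMM kidneys (SD, n = 5). Its log2 fold change was 0.61 over all 10 libraries (edgeR adjusted p = 0.387) and 0.92 over the 8 (edgeR adjusted p = 0.00928). Casr, the calcium-sensing receptor, had log2 fold changes of 0.68 over all 10 (edgeR adjusted p = 0.378) and 0.92 over the 8 libraries (edgeR adjusted p = 0.0252). For Tmem72, a membrane protein gene, these values were 0.78 (edgeR adjusted p = 0.378) and 1.05 (edgeR adjusted p = 0.0132), and for Ptger3, a prostaglandin E2 receptor, 0.69 (edgeR adjusted p = 0.394) and 1.02 (edgeR adjusted p = 0.0159). Slc12a1, the sodium, potassium and chloride cotransporter NKCC2 that loop diuretics block, had 324, 200, 531, 165 and 149 CPM in PBS 1 to PBS 5 and 196, 400, 671, 504 and 850 CPM in DMM 1 to DMM 5. Its log2 fold change was 0.94 (SE 0.43, edgeR adjusted p = 0.459) over all 10, and over the 8 libraries, where it was called, 1.53 (SE 0.31, edgeR adjusted p = 0.0206). DMM 4 lay between DMM 2 and DMM 3 for Slc12a1, unlike for Umod, where it was the lowest of all 10 libraries.

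Ratios within a library do not depend on scaling between libraries. They do not remove a difference by gene length, as in DMM 4, where the genes of a ratio differ in length. Umod has 2763 bp and Slc12a1 5763 bp, Calb1 4846 bp and Slc12a3 11119 bp, and Aqp4 5082 bp and Aqp2 1419 bp. The part of gene length in the ratios was not tested. In all, 8 ratios were compared by exact two-sided permutation tests, with p adjusted over the 8 ratios. The log2 ratio of Umod to Slc12a1, each per length, was 3.95, 4.44, 3.61, 4.32 and 4.21 in PBS 1 to PBS 5. It was 4.50, 4.07, 3.41, 2.05 and 3.18 in DMM 1 to DMM 5. DMM 3, DMM 4 and DMM 5 were below every PBS library, and DMM 1 was above them all. The difference in means, DMM minus PBS, was -0.66 (exact permutation p = 0.167, adjusted p = 0.444), and it was -0.31 without DMM 4 and -1.05 over the 8 libraries (exact permutation p = 0.0571, adjusted p = 0.152). The log2 ratio of Egf to Slc12a1 had means of -3.34 ± 0.99 in PBS and -2.81 ± 0.87 in DMM kidneys (SD, n = 5), a difference of 0.54 (exact permutation p = 0.389, adjusted p = 0.622). This difference was 1.18 over the 8 libraries (exact permutation p = 0.0857, adjusted p = 0.171), and with 1 of the 10 left out it was 0.26 without PBS 4, 0.33 without PBS 5, 0.32 without DMM 5, 0.88 without PBS 3 and 0.84 without DMM 1. None of the 8 ratios passed the adjusted threshold over all 10 libraries, nor over the 8 libraries. The smallest p that the test allows is 0.00794 for all 10 and 0.0286 for the 8 libraries, so that a single ratio, even with groups fully apart, could not pass after adjustment over the 8 ratios.

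Calb1 (ENSMUSG00000028222, chr4:15881264-15908064, plus strand) encodes calbindin-D28K, which carries calcium through cells of the distal convoluted and connecting tubule. It had 35.8, 18.0, 98.9, 11.9 and 12.3 CPM in PBS 1 to PBS 5, and 19.7, 49.0, 89.6, 81.6 and 62.2 CPM in DMM 1 to DMM 5. PBS 3 was the highest of all 10 libraries, and DMM 1 was within the PBS range. Group means were 35.4 ± 36.8 CPM in PBS and 60.4 ± 27.8 CPM in DMM kidneys (SD, n = 5), with a log2 fold change of 0.77 (SE 0.60, edgeR adjusted p = 0.612) that was 1.63 without PBS 3. With 8 libraries, in which the groups did not overlap, Calb1 was called with a log2 fold change of 1.86 (SE 0.37, edgeR adjusted p = 0.0207). With 1 of the 8 left out, the log2 fold change stayed between 1.67 and 2.32. The edgeR adjusted p was above the threshold at 0.0708 without PBS 2, 0.0663 without PBS 4 and 0.0721 without PBS 5. It was also above the threshold at 0.0637 without DMM 3 and 0.0518 without DMM 5. Over 15 alternatives the adjusted p ranged from 1.72e-05, with DESeq2, to 0.0825, with edgeR.

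Kl (ENSMUSG00000058488, chr5:150952607-150993817, plus strand) encodes klotho, the coreceptor of fibroblast growth factor 23 in phosphate control, which the distal tubule expresses most. It had 156, 140, 355, 66.7 and 113 CPM in PBS 1 to PBS 5, and 131, 294, 289, 303 and 277 CPM in DMM 1 to DMM 5. DMM 2 to DMM 5 lay close together and above every PBS library but PBS 3, which was the highest of all 10, while DMM 1 was within the PBS range. Group means were 166 ± 111 CPM in PBS and 259 ± 72.0 CPM in DMM kidneys (SD, n = 5), with a log2 fold change of 0.64 (SE 0.39, edgeR adjusted p = 0.543) that was 1.12 without PBS 3. Over the 8 libraries the means were 119 ± 39.2 CPM in PBS and 291 ± 10.9 CPM in DMM kidneys (SD, n = 4), and Kl was called with a log2 fold change of 1.29 (SE 0.23, edgeR adjusted p = 0.0142). Leaving out any 1 of these 8 libraries other than PBS 5 kept the call. Without PBS 5 the log2 fold change was 1.26 and the edgeR adjusted p 0.0623. Over 15 alternatives the adjusted p ranged from 1.24e-05, with DESeq2, to 0.121, with edgeR.

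Among 17 further genes of the distal convoluted tubule and of calcium or magnesium transport, 16 were tested over all 10 libraries. Of the 16, 3 passed as higher before adjustment, against 1.91% of all tested genes, and 0 were called (median log2 fold change 0.36). Across the 8 libraries 5 of 16 were called higher and 0 lower (median 0.49), against 2.73% and 3.56% of all tested genes. This count was 7 without DMM 4, against 6.71% of all tested genes. It was 3 without DMM 3 or DMM 5, and 2 without PBS 2, PBS 4 or PBS 5. Trpv5, the apical calcium channel of these cells, had 70.3 ± 14.7 CPM in PBS and 111 ± 24.2 CPM in DMM kidneys (SD, n = 5), with a log2 fold change of 0.66 (edgeR adjusted p = 0.378) and, over the 8 libraries, 0.89 (edgeR adjusted p = 0.00875). Kcnj10 and Kcnj16 encode subunits of the basolateral potassium channel of the distal convoluted tubule. Their log2 fold changes were 0.76 (edgeR adjusted p = 0.385) and 0.65 (edgeR adjusted p = 0.378) over all 10 libraries, and 1.09 (edgeR adjusted p = 0.0157) and 0.90 (edgeR adjusted p = 0.00537) over the 8. Slc12a3, the thiazide-sensitive sodium chloride cotransporter, had log2 fold changes of 0.61 over all 10 (edgeR adjusted p = 0.462) and 0.95 over the 8 libraries (edgeR adjusted p = 0.0497). Pvalb, a marker of the early distal convoluted tubule, had at most 5 counts in any library. Relative to Slc12a3, the log2 ratio differed between groups by 0.45 for Calb1 (exact permutation p = 0.349, adjusted p = 0.622) and by 0.14 for Kl (exact permutation p = 0.587, adjusted p = 0.783). For Calb1 the difference was 0.997 over the 8 libraries (exact permutation p = 0.0571, adjusted p = 0.152), and, with 1 of the 10 left out, 0.20 without DMM 4, 0.75 without PBS 3 and 0.70 without DMM 1. For Kl it was 0.39 over the 8 (exact permutation p = 0.171, adjusted p = 0.261), and 0.27 without PBS 3, 0.02 without PBS 4, 0.26 without DMM 1 and -0.04 without DMM 4.

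Aqp2 (ENSMUSG00000023013, chr15:99579055-99584547, plus strand) encodes the apical water channel that vasopressin inserts into the membrane of principal cells. It had 56.9, 36.5, 146, 31.8 and 26.7 CPM in PBS 1 to PBS 5, and 44.3, 65.7, 126, 35.9 and 124 CPM in DMM 1 to DMM 5. PBS 3 was the highest of all 10 libraries, and DMM 1 and DMM 4 were within the range of the other PBS libraries. Group means were 59.5 ± 49.5 CPM in PBS and 79.2 ± 43.2 CPM in DMM kidneys (SD, n = 5), with a log2 fold change of 0.41 (SE 0.51, edgeR adjusted p = 0.753). The latter was 1.06 without PBS 3, 0.25 without PBS 4, 0.23 without PBS 5, 0.18 without DMM 3 and 0.19 without DMM 5. In the 8 libraries the log2 fold change was 1.21 (SE 0.40, edgeR adjusted p = 0.114), and over the 7 without DMM 4 it was 1.47 (SE 0.28, edgeR adjusted p = 0.00513). DESeq2 called it over the 8 (adjusted p = 0.0248), as did edgeR with an offset for gene length, chosen after seeing the data (adjusted p = 0.0302), and the adjusted p ranged from 0.00513 to 0.390 over 15 alternatives.

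Aqp3 (ENSMUSG00000028435, chr4:41092722-41098183, minus strand) and Aqp4 (ENSMUSG00000024411, chr18:15389394-15403684, minus strand) encode the basolateral channels through which water leaves the same cells. Aqp3 had 19.1, 21.7, 42.3, 25.3 and 21.4 CPM in PBS 1 to PBS 5, and 29.2, 35.8, 51.1, 16.0 and 54.4 CPM in DMM 1 to DMM 5. Without PBS 3, every DMM library but DMM 4 was above every PBS library, and DMM 4 was the lowest of all 10. Aqp4 had 20.2, 16.6, 35.0, 9.10 and 10.2 CPM in PBS 1 to PBS 5, and 12.7, 11.97, 28.4, 48.9 and 31.2 CPM in DMM 1 to DMM 5. The order was another for this gene, with DMM 4 the highest of all 10 libraries and DMM 2 as low as the PBS libraries. The log2 fold changes over all 10 libraries were 0.52 (SE 0.32, edgeR adjusted p = 0.544) for Aqp3 and 0.55 (SE 0.45, edgeR adjusted p = 0.631) for Aqp4. With single libraries left out of the 10, Aqp3 had 0.35 without DMM 5, and Aqp4 had 0.92 without PBS 3 and 0.21 without DMM 4. Without PBS 3 and DMM 1 they were 0.85 (SE 0.33, edgeR adjusted p = 0.175) and 1.10 (SE 0.41, edgeR adjusted p = 0.159). Without DMM 4 as well, the value of Aqp3 was 1.11 (SE 0.15, edgeR adjusted p = 0.00110) and that of Aqp4 was 0.77 (SE 0.36, edgeR adjusted p = 0.144). With the length offset the adjusted p of Aqp3 was 0.0362, and over 15 alternatives to the 8 libraries it ranged from 0.00110 to 0.662 for Aqp3 and from 0.05 to 0.482 for Aqp4. Relative to the mean of DMM 2, DMM 3 and DMM 5, the log2 level in DMM 4 was -1.49 for Aqp2 (1419 bp), -1.53 for Aqp3 (1829 bp) and 1.15 for Aqp4 (5082 bp), but also -1.78 for Umod (2763 bp) and -1.44 for Egf, the longest of the 10 genes (11275 bp). Whether the length pattern of DMM 4 sets these positions was not tested.

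The log2 ratio of Aqp4 to Aqp2 was -3.33, -2.97, -3.90, -3.64 and -3.23 in PBS 1 to PBS 5, and -3.64, -4.29, -3.99, -1.39 and -3.83 in DMM 1 to DMM 5. Apart from DMM 4, the DMM libraries lay at or below the middle of the PBS range. The means differed by -0.01 (exact permutation p = 1, adjusted p = 1), and for Aqp3 to Aqp2 by -0.08 (exact permutation p = 0.841, adjusted p = 0.961). When DMM 4 alone was left out of the 10 libraries, the first difference was -0.52 (exact permutation, adjusted p = 0.169), and across single libraries left out it was between -0.52 and 0.20. The other difference was between -0.28 without PBS 3 and 0.08 without PBS 4 or PBS 5. Over the 8 libraries these differences were -0.08 (exact permutation p = 0.971, adjusted p = 0.971) for Aqp4 and -0.39 (exact permutation p = 0.229, adjusted p = 0.261) for Aqp3.

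Of 15 genes for other aquaporins, urea transport and vasopressin signaling, 12 were tested over all 10 libraries and 0 were called (median log2 fold change 0.16). Among the 12, 1 passed as higher and 1 as lower before adjustment, against 1.91% and 4.11% of all tested genes. With 8 libraries 1 of 12 was called higher, Aqp11, an intracellular aquaporin, and 0 lower, against 2.73% and 3.56% of all tested genes (median 0.31). Without DMM 4 the counts were 5 and 2, against 1129 and 1281 of 16828 tested genes, and without DMM 2 they were 2 and 0. Aqp11 had log2 fold changes of 0.86 over all 10 libraries (edgeR adjusted p = 0.478) and 1.51 over the 8 (edgeR adjusted p = 0.00507). Slc14a2, the urea transporter of the inner medullary collecting duct, had 45.5 ± 8.93 CPM in PBS and 68.6 ± 18.2 CPM in DMM kidneys (SD, n = 5), with a log2 fold change of 0.59 (edgeR adjusted p = 0.385). Aqp6, an aquaporin of intercalated cell vesicles, had log2 fold changes of 0.58 over all 10 (edgeR adjusted p = 0.418) and 0.83 over the 8 libraries (edgeR adjusted p = 0.0594). Akap5, an anchoring protein of protein kinase A and the gene that passed as lower before adjustment, had between 8 and 51 counts per library, with a log2 fold change of -0.94 (edgeR adjusted p = 0.410) and, over the 8 libraries, where the groups did not overlap, -1.20 (edgeR adjusted p = 0.122). Aqp12 had 0 counts in every library and was not detected at this depth, and Aqp5 and Aqp8 had at most 10 and 17 counts.

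Scnn1a (ENSMUSG00000030340, chr6:125320659-125344943, plus strand), Scnn1b (ENSMUSG00000030873, chr7:121865038-121918514, plus strand) and Scnn1g (ENSMUSG00000000216, chr7:121734479-121768475, plus strand) encode the alpha, beta and gamma subunits of ENaC, the aldosterone-controlled sodium channel, and the latter genes are neighbours. Scnn1a had 79.0, 78.5, 99.9, 61.2 and 70.3 CPM in PBS 1 to PBS 5, and 91.7, 111, 151, 83.7 and 123 CPM in DMM 1 to DMM 5. DMM 2, DMM 3 and DMM 5 were above every PBS library, and DMM 1 and DMM 4 were above every PBS library but PBS 3. Group means were 77.8 ± 14.3 CPM in PBS and 112 ± 26.8 CPM in DMM kidneys (SD, n = 5), and Scnn1a was the only one of the 10 genes with an unadjusted p below 0.05 in the fit over all 10 libraries, at a log2 fold change of 0.53 (SE 0.18, edgeR adjusted p = 0.386). Over the 8 libraries the groups did not overlap, and the log2 fold change was 0.70 (SE 0.18, edgeR adjusted p = 0.0531). It was called there by DESeq2 (adjusted p = 0.0117), with RLE size factors (0.0490), with the filter of 50 counts (0.0476) and with the length offset (0.0180), and the adjusted p ranged from 0.00160 to 0.297 over 15 alternatives. Scnn1b had 52.2, 52.7, 70.5, 43.9 and 45.2 CPM in PBS 1 to PBS 5, and 55.5, 72.4, 64.8, 47.0 and 67.7 CPM in DMM 1 to DMM 5. Only DMM 2 was above PBS 3, and DMM 4 was within the PBS range. Scnn1g had 45.7, 40.9, 59.0, 30.2 and 38.0 CPM in PBS 1 to PBS 5, and 36.4, 60.2, 70.9, 41.5 and 58.4 CPM in DMM 1 to DMM 5. DMM 2 and DMM 3 were above every PBS library, and the other 3 DMM libraries were within the PBS range.

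The log2 fold changes of Scnn1b and Scnn1g were 0.22 (SE 0.16, edgeR adjusted p = 0.588) and 0.32 (SE 0.21, edgeR adjusted p = 0.566) over all 10 libraries, while that of Scnn1b was 0.34 without PBS 3 and that of Scnn1g was 0.20 without DMM 3. Across the 8 libraries they were 0.38 (SE 0.15, edgeR adjusted p = 0.186) and 0.58 (SE 0.19, edgeR adjusted p = 0.106). Without DMM 4 as well, Scnn1a had a log2 fold change of 0.83 (edgeR adjusted p = 0.00160), Scnn1g of 0.71 (edgeR adjusted p = 0.00449) and Scnn1b of 0.49 (edgeR adjusted p = 0.00279), the last under the fold threshold. The adjusted p over 15 alternatives to the 8 libraries ranged from 0.00279 to 0.513 for Scnn1b and from 0.00449 to 0.305 for Scnn1g, which the length offset also brought to a call (0.0187). Scnn1b overlaps Cog7 on the opposite strand, which had up to 1061 counts, and since the strand setting of the counting is not given in the sources used here, reads of both genes may have been counted together. The log2 ratio of Scnn1b to Scnn1a was 0.05, 0.08, 0.15, 0.17 and 0.01 in PBS 1 to PBS 5, and -0.07, 0.04, -0.57, -0.18 and -0.21 in DMM 1 to DMM 5. Every DMM library but DMM 2 was below every PBS library. The means were 0.09 ± 0.07 in PBS and -0.20 ± 0.23 in DMM kidneys (SD, n = 5), a difference of -0.29 (exact permutation p = 0.0159, adjusted p = 0.127), and for Scnn1g to Scnn1a the difference was -0.20 (exact permutation p = 0.0635, adjusted p = 0.254). In the 8 libraries these were -0.31 (exact permutation p = 0.0571, adjusted p = 0.152) and -0.10 (exact permutation p = 0.229, adjusted p = 0.261).

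**Figure D2:**
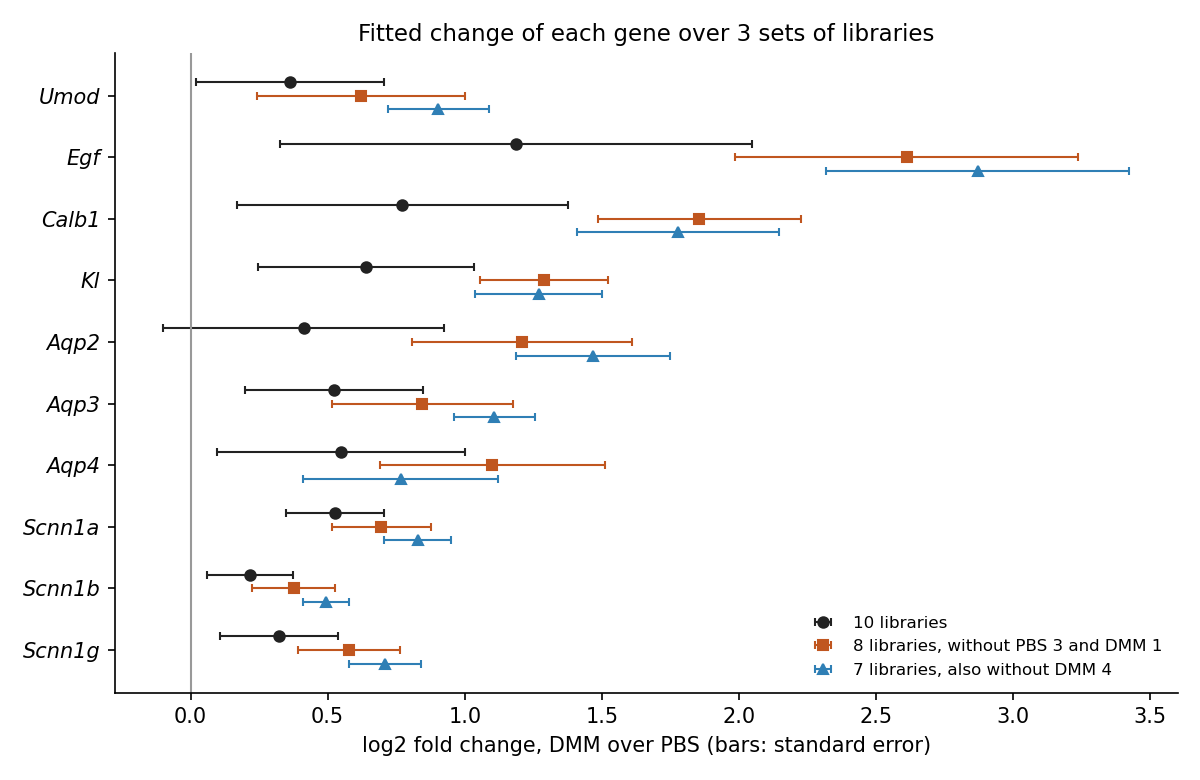
Fitted log2 fold change (DMM over PBS, x axis) of each gene with its standard error as bars, over 10 libraries (circles), 8 libraries (squares) and 7 libraries (triangles). Every point lies to the right of 0, Egf is the farthest in each set, and the values over 8 libraries are above those over 10 for all 10 genes.

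Of 17 genes of principal cells and ENaC regulation, 16 were tested over all 10 libraries and 0 were called (median log2 fold change 0.12, with 10 of 16 values above 0). Among the 16, 2 passed as higher before adjustment, against 1.91% of all tested genes. In the 8 libraries 1 of 16 was called higher, Usp2, a deubiquitinase, and 0 lower (median 0.29), against 2.73% and 3.56% of all tested genes. The number called higher was 2 without DMM 4, against 6.71% of all tested genes. It was 0 without DMM 3, DMM 5, PBS 1, PBS 2, PBS 4 or PBS 5. Usp2 had 28.9 ± 9.51 CPM in PBS and 47.5 ± 16.7 CPM in DMM kidneys (SD, n = 5), with a log2 fold change of 0.71 (edgeR adjusted p = 0.403) and, over the 8 libraries, 1.06 (edgeR adjusted p = 0.0255). Tfcp2l1, a transcription factor of collecting duct cells, had 451, 477, 507, 361 and 453 CPM in PBS 1 to PBS 5, and 514, 650, 660, 1279 and 637 CPM in DMM 1 to DMM 5. All 5 DMM libraries were above all 5 PBS libraries, by a narrow margin for DMM 1, with a log2 fold change of 0.73 (SE 0.23, edgeR adjusted p = 0.382). Every DMM library lay above every PBS library for 1 of the 16 tested genes of this list, against 0.794% of all tested genes. Tfcp2l1 is 9438 bp long, and DMM 4 was its highest library. Over the 7 libraries without DMM 4, its log2 fold change was 0.58 (edgeR adjusted p = 0.00242), under the fold threshold. Nedd4l, the ubiquitin ligase that removes ENaC from the membrane, had a log2 fold change of 0.30 (edgeR adjusted p = 0.436). Sgk1, Nr3c2 and Hsd11b2, the kinase, the receptor and the enzyme of the aldosterone response, had log2 fold changes of 0.12, 0.19 and 0.12 (edgeR adjusted p of 0.828, 0.666 and 0.832), and were chosen after their values were seen. Avpr2, the vasopressin receptor of principal cells, had at most 6 counts in any library.

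Intercalated cells, the acid and base secreting cells of the same ducts, gave 15 listed genes, all tested over all 10 libraries. Of these, 2 passed as higher before adjustment, against 1.91% of all tested genes, and 0 were called (median log2 fold change 0.40). Without PBS 3 and DMM 1, 5 of 15 were called higher and 0 lower (median 0.54), against 2.73% and 3.56% of all tested genes. The number called higher was 9 without DMM 4, against 6.71% of all tested genes. It was 3 without PBS 1, PBS 2, PBS 5, DMM 2 or DMM 5, and 2 without PBS 4 or DMM 3. Slc26a4, the chloride and bicarbonate exchanger pendrin, had 29.8, 29.3, 36.3, 16.4 and 27.4 CPM in PBS 1 to PBS 5. It had 50.7, 50.4, 56.8, 54.1 and 53.4 CPM in DMM 1 to DMM 5. All 5 DMM libraries were above all 5 PBS libraries, DMM 1 and DMM 4 included, and the DMM values lay close together. The log2 fold change was 0.93 (SE 0.17, edgeR adjusted p = 0.378) over all 10 and 1.06 (SE 0.18, edgeR adjusted p = 0.0118) over the 8 libraries. Atp6v0d2, a subunit of the proton pump, was the other listed gene of this cell type whose groups did not overlap over all 10 libraries (log2 fold change 0.53, edgeR adjusted p = 0.378). Every DMM library lay above every PBS library for 2 of the 15 listed genes, against 0.794% of all tested genes. Atp6v0a4, another subunit of that pump, and Slc4a1, the anion exchanger AE1, had log2 fold changes of 0.76 (edgeR adjusted p = 0.378) and 0.75 (edgeR adjusted p = 0.547) over all 10 libraries, and 1.09 (edgeR adjusted p = 0.00594) and 1.55 (edgeR adjusted p = 0.0162) over the 8.

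Among 13 ligands and receptors of the EGF family and their regulators, 12 were tested over all 10 libraries and 0 were called (median log2 fold change 0.22). Of the 12, 1 passed as higher before adjustment, against 1.91% of all tested genes. With 8 libraries 1 of 12 was called higher, the ligand Nrg1, and 0 lower (median 0.33), against 2.73% and 3.56% of all tested genes. The number called higher was 3 without DMM 4, against 6.71% of all tested genes. Nrg1 had 30.7 ± 1.23 CPM in PBS and 45.1 ± 10.1 CPM in DMM kidneys (SD, n = 5), with a log2 fold change of 0.56 (edgeR adjusted p = 0.378) and, over the 8 libraries, 0.68 (edgeR adjusted p = 0.00955). DMM 1, at 28.6 CPM, was the lowest of all 10 libraries. Erbb4, the receptor of Nrg1, had log2 fold changes of 0.73 over all 10 (edgeR adjusted p = 0.385) and 0.87 over the 8 libraries (edgeR adjusted p = 0.0615). Egfr, the receptor of Egf, had 98.9 to 113 CPM in PBS kidneys, 94.4 to 118 CPM in DMM 1, DMM 2, DMM 3 and DMM 5, and 244 CPM in DMM 4, and was chosen after its values were seen.

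In the list of klotho and fibroblast growth factor 23 (FGF23) signaling, 11 of 13 genes were tested and 0 were called over all 10 libraries or over the 8, with medians of 0.07 and 0.05. As higher before adjustment, 1 and 3 of them passed, against 1.91% and 6.45% of all tested genes. Without DMM 4, 2 were called higher over the 7 libraries, against 6.71% of all tested genes, and 1 without DMM 2. Fgf23 and Klb, with at most 2 and 11 counts in any library, were not tested. Cyp24a1, the enzyme that inactivates vitamin D, had 34.3, 55.3, 42.6, 55.2 and 71.1 CPM in PBS 1 to PBS 5, and 59.8, 59.4, 98.8, 133 and 114 CPM in DMM 1 to DMM 5. DMM 3, DMM 4 and DMM 5 were above every PBS library, and DMM 1 and DMM 2 were below PBS 5 alone. Its log2 fold change was 0.85 (SE 0.26, edgeR adjusted p = 0.378) over all 10 and 0.91 (SE 0.28, edgeR adjusted p = 0.0891) over the 8 libraries. Fgfr2 and Cyp27b1, an FGF receptor and the enzyme that activates vitamin D, had log2 fold changes of -0.36 (edgeR adjusted p = 0.513) and 0.35 (edgeR adjusted p = 0.560).

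Markers of other cell types also moved across these libraries. Of 14 markers of the proximal tubule, 0 were called over all 10 libraries (median log2 fold change 0.72). As higher before adjustment 2 passed, against 1.91% of all tested genes. Over the 8 libraries 6 were called higher (median 1.64), against 2.73% of all tested genes. Of these markers, 13 were called without DMM 4, against 6.71% of all tested genes, and 4 without PBS 1, PBS 5, DMM 3 or DMM 5. Their summed level was 2613, 2660, 6519, 1222 and 2162 CPM in PBS 1 to PBS 5 and 1988, 5241, 5907, 5618 and 7541 CPM in DMM 1 to DMM 5. PBS 3 and DMM 1 thus stood apart in these markers as they did in the 10 genes. Per kilobase, Slc27a2 was the highest of them in every library but DMM 4, where Lrp2 was. Of 10 fibroblast and myofibroblast markers, 0 were called over all 10 libraries, with 0 that passed before adjustment (median -0.48), and 3 were called lower over the 8 (median -0.83), against 3.56% of all tested genes. Without DMM 4 the latter count was 6, against 1281 of 16828 tested genes called lower. Without PBS 2, PBS 4, PBS 5, DMM 3 or DMM 5 the count of these markers was 1. Their summed level, with Col1a1 the highest per kilobase in all 10 libraries, was 8224, 11570, 6454, 16610 and 11050 CPM in PBS 1 to PBS 5 and 13410, 6571, 4427, 9277 and 5153 CPM in DMM 1 to DMM 5. PBS 3 was the lowest PBS library and DMM 1 the highest DMM library. The part of cell makeup in the differences of the 10 genes was not tested.

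Of 11 leukocyte markers, 6 passed as lower before adjustment, against 678 of 16505 tested genes (4.11%), and 0 were called over all 10 libraries (median log2 fold change -0.62). Across the 8, 1 was called lower, Cd68 (median -0.80), against 3.56% of all tested genes. Of the leukocyte markers, 5 were called lower without DMM 4, against 1281 of 16828 tested genes, and 2 without DMM 2. Their summed level, with Tyrobp the highest per kilobase in every library but DMM 4 (Csf1r), was 729, 689, 650, 713 and 782 CPM in PBS 1 to PBS 5 and 639, 509, 403, 571 and 418 CPM in DMM 1 to DMM 5. All 14 interferon response genes passed as lower before adjustment over all 10 libraries, where 0 were called (median -1.84), and all 14 were called lower over the 8 (median -3.36), against 4.11% and 3.56% of all tested genes. Their summed level, with Ifit3 the highest per kilobase in every library but DMM 4 (Rsad2), was 4174, 2570, 2985, 4184 and 4008 CPM in PBS 1 to PBS 5 and 3189, 463, 408, 396 and 345 CPM in DMM 1 to DMM 5. In these genes DMM 1 was at the level of PBS kidneys and DMM 4 was as low as DMM 2, DMM 3 and DMM 5, and PBS 3 did not stand apart. Over all 10 libraries the median log2 fold change was -0.01 for 11 tubular injury markers (0 passed before adjustment), -0.30 for 10 urothelial markers, 0.06 for 6 podocyte markers and 0.00 for 8 endothelial markers, and 0 of these were called over all 10 or over the 8 libraries. When DMM 4 was left out of the 8, 2 injury markers were called lower, against 1281 of 16828 tested genes. Without PBS 1, 1 injury and 1 urothelial marker were called lower, against 367 among all tested genes. The summed level of the injury markers was 16090 to 22970 CPM in PBS and 19510 to 24360 CPM in DMM kidneys. That of the urothelial markers was 137, 293, 150, 344 and 221 CPM in PBS 1 to PBS 5 and 247, 94.6, 223, 73.5 and 271 CPM in DMM 1 to DMM 5. Podocyte markers summed to 662 to 838 CPM in PBS and 660 to 985 CPM in DMM kidneys, and endothelial markers to 822 to 1138 CPM and 882 to 1046 CPM, with overlapping groups in each of these lists. Per kilobase, Spp1, Podxl and Plvap were the highest injury, podocyte and endothelial markers in all 10 libraries, and Psca was the highest urothelial marker in 7 of 10. No marker of these other cell types was near 0 in all libraries.

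**Figure D3:**
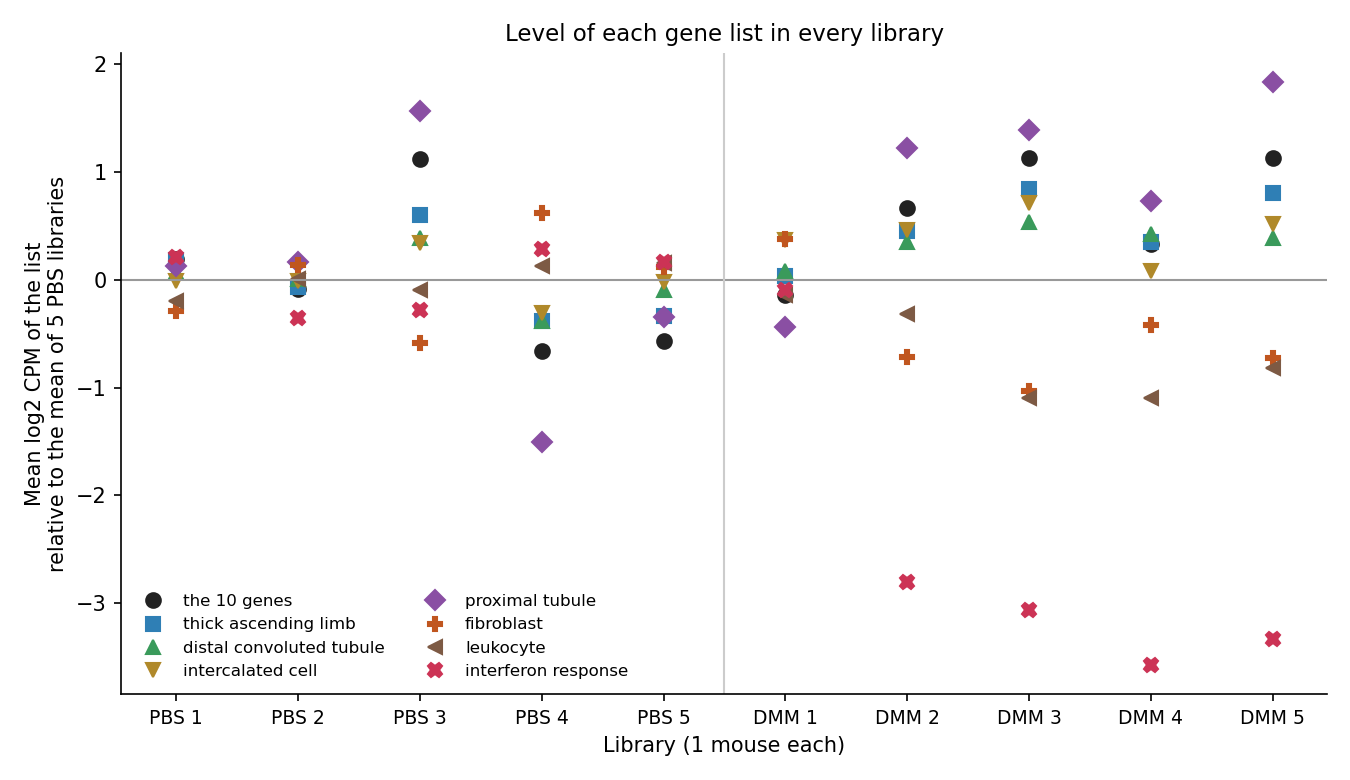
Mean log2 CPM of the tested genes of 8 lists in every library, relative to the mean of the 5 PBS libraries (y axis), with 1 symbol per list. The 10 genes and the proximal tubule markers are high in PBS 3 (1.12 and 1.56) and low in DMM 1 (-0.14 and -0.44), while the interferon response genes lie between -3.57 and -2.80 in DMM 2 to DMM 5 and at -0.10 in DMM 1.

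Likeness of pattern was measured as Pearson's r of log2 CPM over the 10 libraries between each of the 10 genes and 16504 other tested genes, and is given as a description with no p, since the highest of many values was taken and the libraries fall apart as described. The nearest genes to Umod were AC078895.1 (r = 0.985), Pou3f3 (r = 0.981) and Defb29 (r = 0.979). For Egf they were Clec2h (r = 0.993), Aadat (r = 0.990) and Mettl7a2 (r = 0.987), and the order of the 10 libraries was the same for Clec2h as for Egf (Spearman's rho = 1). The nearest to Calb1 were Rtn4ip1 (r = 0.974), Slc4a1 (r = 0.972) and Slc10a5 (r = 0.961), and those to Kl included Sult1c2 (r = 0.985) and Slc22a22 (r = 0.984). Slc4a1 is itself on the list of intercalated cell genes. For Aqp2 they were Aacs (r = 0.972), Hexdc (r = 0.972) and Apela (r = 0.966), for Aqp3 Shmt2 (r = 0.962), E230016K23Rik (r = 0.958) and Tufm (r = 0.958), and for Aqp4 Rnf128 (r = 0.973), Lyrm9 (r = 0.937) and Lrp4 (r = 0.929). The nearest to Scnn1a were Habp4 (r = 0.968), Ttc38 (r = 0.962) and Tom1l2 (r = 0.960), those to Scnn1b included 1700028J19Rik (r = 0.970) and Smlr1 (r = 0.958), and those to Scnn1g were Slc6a13 (r = 0.983), Grtp1 (r = 0.976) and 0610005C13Rik (r = 0.976). None of the 10 genes was among the 3 nearest of another.

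Promoters are shown for Umod, the most abundant of the 10 genes, for Egf and Kl, called over the 8 libraries, and for Aqp2, the vasopressin-controlled water channel. RefSeq promoter entries (build GRCm38.p6, from 250 bases before to 50 bases after the start) were found for 7 of the 10 genes, and not for Calb1, Aqp4 and Scnn1a. With letters chosen after the sequences were seen, both strands were searched for GTTAAT, the core of sites bound by HNF1 factors of kidney epithelium, for TGACGT, the core of the cAMP response element, and for TGTTCT, a core bound by glucocorticoid and mineralocorticoid receptors. Among all 32851 promoter entries, 7.10% held GTTAAT, 7.51% held TGACGT and 19.0% held TGTTCT. Capitals mark a match, and no matches overlapped.
Umod promoter, chr7:119479213-119479512, minus strand: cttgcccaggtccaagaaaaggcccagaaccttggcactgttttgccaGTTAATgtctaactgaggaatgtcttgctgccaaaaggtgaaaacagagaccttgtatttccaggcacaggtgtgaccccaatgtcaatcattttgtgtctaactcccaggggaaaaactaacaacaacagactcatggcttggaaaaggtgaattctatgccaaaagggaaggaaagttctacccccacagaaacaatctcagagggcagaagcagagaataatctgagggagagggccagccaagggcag
Aqp2 promoter, chr15:99578806-99579105, plus strand: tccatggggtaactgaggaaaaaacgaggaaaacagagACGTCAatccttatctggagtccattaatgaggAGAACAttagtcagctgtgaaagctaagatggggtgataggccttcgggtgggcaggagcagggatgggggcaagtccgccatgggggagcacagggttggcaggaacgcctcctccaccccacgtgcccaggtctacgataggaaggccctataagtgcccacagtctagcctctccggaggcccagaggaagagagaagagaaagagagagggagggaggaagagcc
Kl promoter, chr5:150952357-150952656, plus strand: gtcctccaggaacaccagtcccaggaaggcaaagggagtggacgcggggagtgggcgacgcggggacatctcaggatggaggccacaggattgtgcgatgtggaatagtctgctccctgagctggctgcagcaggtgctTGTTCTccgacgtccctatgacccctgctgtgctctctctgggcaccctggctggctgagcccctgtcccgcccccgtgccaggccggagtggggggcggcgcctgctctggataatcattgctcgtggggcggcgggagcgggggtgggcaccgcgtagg
Egf promoter, chr3:129755273-129755572, minus strand: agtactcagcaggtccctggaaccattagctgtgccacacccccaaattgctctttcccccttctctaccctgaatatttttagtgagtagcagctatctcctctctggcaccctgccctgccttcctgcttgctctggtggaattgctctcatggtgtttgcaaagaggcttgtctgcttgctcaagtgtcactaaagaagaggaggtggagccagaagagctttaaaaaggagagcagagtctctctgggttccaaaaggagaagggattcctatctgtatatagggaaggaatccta
The Umod promoter held GTTAAT at bases 49 to 54, counted from 1 at the 5′ end of the entry. The Aqp2 promoter held TGACGT in reverse, as ACGTCA, at bases 39 to 44 and TGTTCT in reverse, as AGAACA, at bases 72 to 77. The Kl promoter held TGTTCT at bases 140 to 145. In the Egf, Aqp3, Scnn1b and Scnn1g promoters, none of the 3 motifs was found, which says only that these letters are not in these windows. The share of G and C was 47.3% for Umod, 49.0% for Egf, 56.0% for Aqp2 and 67.3% for Kl.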

How the data were processed

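The data were bulk RNA-seq of obstructed kidneys from 10 mice, 5 given PBS and 5 given DMM. RNA was extracted with TRIzol per the labels, while the study's methods name a kit. The authors mapped the reads, from a NovaSeq X Plus instrument, to build mm10 with HISAT2 2.0.5, as the labels name it, and the counting tool, annotation release and strand setting are not given in the sources used here. The authors deposited a whole-number count of reads per gene for each library, without normalization, and these were tested. The authors also deposited FPKM values of the same 10 libraries, which entered no test. A deposited group mean signal, counts divided by size factors, served only to find which libraries have a weight in it, and the study's methods state 5 replicates. Deposited fold changes and p-values of the authors' own comparison were not used.

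Groups came from the sample titles, and no covariate was used. The 10 genes and the gene lists were chosen with earlier results of these data known. Counts were filtered by filterByExpr, scaled by TMM and tested with glmQLFit and glmQLFTest of edgeR 4.0.16 (limma 3.58.1, R 4.3.3), with Benjamini-Hochberg adjustment over all tested genes. All 10 libraries gave the main result, and 8 without PBS 3 and DMM 1 a second one. Log2 CPM used a prior count of 2. Ratios used log2 of count plus 1 per length, with exact two-sided permutation tests. Named genes were the 10 genes, in each list the 3 tested genes of smallest p over 10 libraries and up to 3 called over the 8 by smallest p, and for each of the 10 the 3 genes of highest Pearson r, with some left out of the text. Slc12a1 and Slc12a3 were named as denominators of ratios. Alternatives were DESeq2 1.42.0, RLE size factors, library size alone, no filter, a filter of 50 counts in 4 libraries, no fold threshold, the replicate number as a block, a prior count of 5 for ratios and each library left out. An offset for gene length was added after seeing the data, and the 7 libraries without DMM 4, among the sets with a library left out, were singled out after seeing the data. The edgeR steps were tested on simulated counts. Any 2 libraries of a group differed by more than sampling noise. No molecular identifiers are described, so counting errors cover counting only.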

Additional observations from a re-analysis of the deposited data

Results flagged for a closer look

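In 36 groups of 5 libraries, 6 had a highest or lowest library farther from its neighbour than Dixon's test allows at 95%. Chance gives about 1 in 20 such groups where groups are independent. The 36 groups reuse the same 10 libraries for genes and ratios that vary together, so the 6 cannot be judged against that rate. Of these, 4 were PBS 3 in the PBS group, at 267 CPM for Egf, 98.9 CPM for Calb1, 146 CPM for Aqp2 and 42.3 CPM for Aqp3, each the highest PBS value. Kl had 131 CPM in DMM 1, the lowest DMM value. The log2 ratio of Aqp4 to Aqp2 was -1.39 in DMM 4, the highest of the DMM group. What set these libraries apart was not tested.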

How the results depend on the processing

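Over all 10 libraries, 177 of 180 alternative values of the 10 genes kept direction and call, and 3 became calls, Egf (2.61), Calb1 (1.86) and Kl (1.29) over the 8 libraries. No call was there to lose, and single libraries moved the log2 fold change by over 1.5 times for 9 of the 10 genes, all but Scnn1a. Over the 8 libraries, 121 of 150 kept both, 16 lost a call, 13 gained one and 0 changed sign. The losses were, for Egf, with library size alone and without PBS 2, PBS 4, PBS 5, DMM 2, DMM 3 or DMM 5, for Calb1 without PBS 2, PBS 4, PBS 5, DMM 3 or DMM 5, for Kl without PBS 5, and for all 3 with the replicate number as a block, where the log2 fold changes were 3.04, 2.19 and 1.51. The gains were with DESeq2 for Aqp2 and Scnn1a, with RLE size factors or the filter of 50 counts for Scnn1a, with the length offset, chosen after seeing the data, for Aqp2, Aqp3, Scnn1a and Scnn1g, and without DMM 4 for Umod, Aqp2, Aqp3, Scnn1a and Scnn1g. Calls across all genes over the 10 libraries were 14 higher and 36 lower with DESeq2, and 0 to 50 higher and 0 to 436 lower with 1 library left out. Over the 8 libraries, the 452 genes called higher became 749 with DESeq2, 276 with library size alone, 703 with the length offset and 0 with the replicate number as a block, and 131 to 1129 with 1 library left out. The 590 called lower became 911 with DESeq2, 700 with library size alone, 0 with the block and 276 to 1281 with 1 library left out. Deviations from the group mean of same-numbered libraries correlated with r from -0.22 to 0.34, not every library correlated best with its own number, and the labels give no shared litter or day. With 1 library left out, the difference in log2 ratio, DMM minus PBS, ranged from -0.283 to 0.082 for Aqp3 to Aqp2, from -0.522 to 0.202 for Aqp4 to Aqp2 and from -0.035 to 0.268 for Kl to Slc12a3, so that none of these had a stable sign. The cause was not tested. Most libraries are common to the sets of 10, 8 and 7, which are therefore not separate evidence.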
